A study of Mus with 35 samples.

Results

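The choroid plexus genes described here are Ttr, Kl, Folr1, Kcnj13, Clic6, Aqp1, Otx2, Sostdc1, Enpp2 and Prlr. They were taken by symbol as genes of the tissue that borders the site of the ventricular injections. No threshold on a measured value was used, but the list was drawn up with earlier results of these data known. Each of the 10 symbols occurred once among the 55573 rows of the deposited table, and all 10 passed the filter of a mean of 1 TPM. TPM, the deposited measure of transcript abundance, is a level scaled for transcript length and for the total of each library.

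The libraries came from brains of male C57BL/6J mice, which were hemizygous for an Hnrnph2 allele with P209L or with R206W, or were wild-type (WT) littermates. Hnrnph2 is an X-linked gene for an RNA-binding protein. Every animal, controls included, had received 1 injection of 30 µg of an antisense oligonucleotide (ASO) into the brain ventricles at postnatal day 2 to 4. The ASO was either a control sequence or one directed at Hnrnph2, so no group lacks the injection. The 12 groups were WT and P209L collected at 8 weeks, WT and P209L collected at 3 weeks, and WT and R206W collected at 3 weeks, each with either ASO. They gave 35 libraries, with 3 in 11 of the groups and 2 in the 3-week P209L group that received the Hnrnph2 ASO. Whether the replicates were separate animals is not stated outright, so p-values measure the spread between these libraries.

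The choroid plexus is a folded, blood-supplied epithelium inside the ventricles that secretes most of the cerebrospinal fluid and forms the barrier between blood and that fluid. Its cells move ions and water with channels and pumps, carry vitamins and hormones across, and release proteins into the fluid. In RNA from brain tissue it is a minor component, so the amount of it in a sample and the RNA per cell both move its genes. Fewer or more choroid plexus cells and less or more RNA per cell cannot be told apart in these bulk libraries.

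The members fall into 4 roles. Ttr (transthyretin, the carrier of thyroid hormone and of retinol with its binding protein), Kl (Klotho, a co-receptor for FGF23 that is also shed), Enpp2 (autotaxin, the secreted enzyme that makes lysophosphatidic acid) and Sostdc1 (a secreted antagonist of BMP and Wnt signals) act outside the cell. Folr1 (the folate receptor alpha) and Prlr (the prolactin receptor) bind ligands at the surface. Kcnj13 (the potassium channel Kir7.1), Aqp1 (a water channel) and Clic6 (a chloride intracellular channel protein) serve ion and water transport. Otx2 is a homeodomain transcription factor needed for the choroid plexus to form, and it is also made by other brain cells, including cells of the cerebellum.

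In mm10 coordinates, with annotation from RefSeq on GRCm38.p6, Ttr spans chr18:20664209-20674326, Kl chr5:150952607-150993817, Enpp2 chr15:54838901-54952789 and Sostdc1 chr12:36314169-36318452. Folr1 spans chr7:101858331-101870788 and Prlr chr15:10177238-10349190. Kcnj13 spans chr1:87384577-87394729, Aqp1 chr6:55336299-55348555, Clic6 chr16:92498147-92541241 and Otx2 chr14:48656781-48667644. Kcnj13 overlaps Gigyf2, which was at 29.91 to 41.45 TPM. The strand setting of the counting is not given in the sources used here, so the Kcnj13 values are uncertain to the extent that reads of Gigyf2 could be assigned to it. Ttr overlaps Gm16090, which stayed at or under 0.07 TPM. Folr1 overlaps Gm35597 and Prlr overlaps Gm41268, whose levels were not analysed here, so these members carry the same uncertainty.

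Ttr was the most abundant of the 10 in each library, at 758.5 ± 212.6 TPM (SD over 35 libraries, with groups pooled), and ranked between 45 and 229 among all rows. Enpp2 came next at 224.9 ± 49.58 TPM. Both exceeded the next gene in 35 of 35 libraries, with ranges that did not touch. Otx2 (7.85 ± 1.55 TPM), Clic6 (7.83 ± 1.61) and Folr1 (7.81 ± 2.76) had means that differed by less than their spread. Kl followed at 6.28 ± 2.83 TPM and Kcnj13 at 4.78 ± 2.15. Aqp1 (4.07 ± 1.05 TPM) and Sostdc1 (4.01 ± 1.11) could not be ordered, since Aqp1 was the higher in 20 of 35 libraries. Prlr was the lowest at 2.08 ± 0.909 TPM and lay under Sostdc1 in 35 of 35 libraries.

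**Figure D1:**
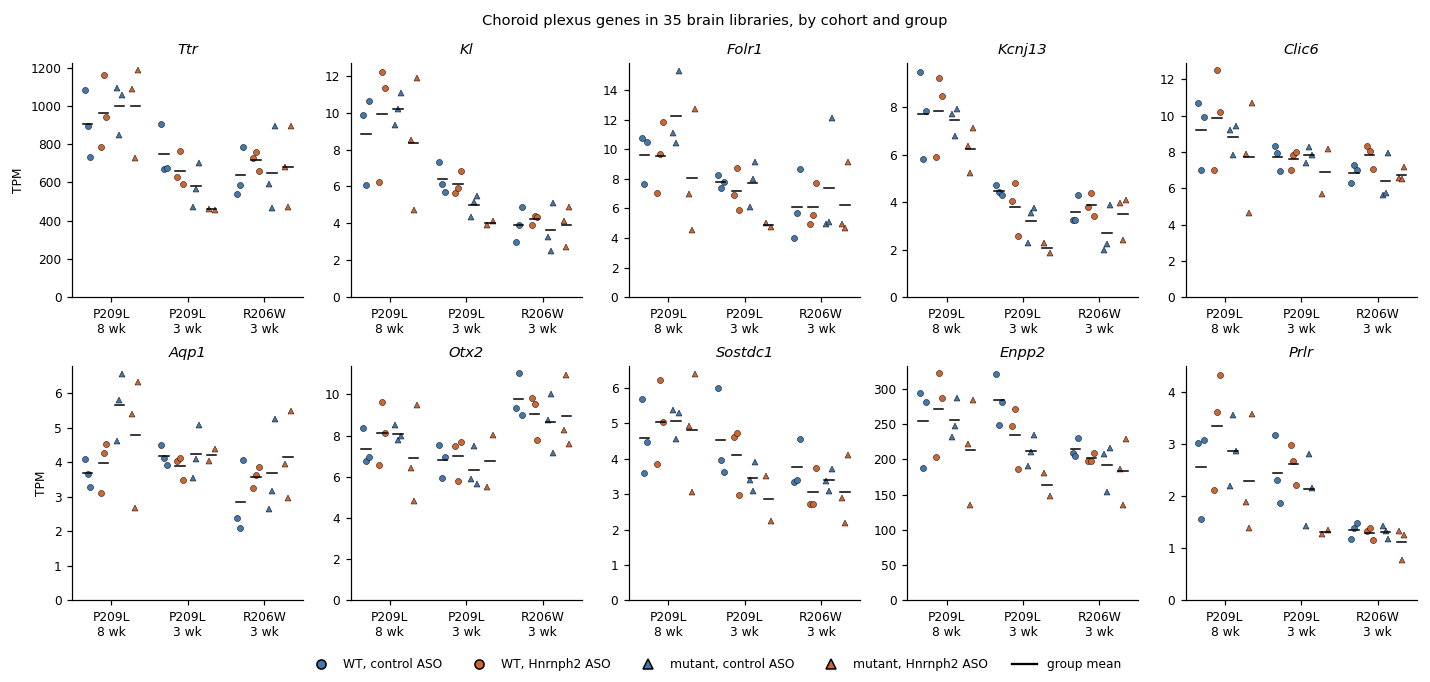
TPM of the 10 choroid plexus genes (linear y axis from 0, a scale of its own for each gene) in each of 35 libraries, by cohort on the x axis. Circles are WT and triangles mutant, blue is the control ASO and orange the Hnrnph2 ASO, and the bars are group means. Kcnj13 is at 5.22 TPM or more in all 12 libraries of the 8-week cohort and at 4.81 or less in all 11 of the 3-week P209L cohort.

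Before the comparisons, some facts of the whole set bear on these genes. Hnrnph2 was at 88.20 to 116.82 TPM with the control ASO and at 6.95 to 26.68 with the Hnrnph2 ASO, so no library went against its ASO label. The labels give whole brain in one place and cortex in another, and genes of cerebellar granule and Purkinje cells were present in each library, at a summed 560.83 to 1646.4 TPM. The depth of the libraries is unknown, because TPM keeps no totals, and between 16235 and 16649 genes reached 1 TPM. The library with 16649 was WT Hnrnph2 ASO replicate 3 of the P209L cohort at 3 weeks. Mitochondrial genes held 9.28% of its TPM, and 12.19 to 15.41% in all other libraries. It was kept in the comparisons.

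The libraries of a group differed in their levels of the choroid plexus genes. The sum of the 10 genes, most of it Ttr and Enpp2, ran from 894.71 to 1549.7 TPM at 8 weeks. At 3 weeks the sums were 639.14 to 1274.9 TPM with P209L and 642.03 to 1166.2 TPM with R206W. Relative to the mean of its own group, on log2(TPM + 1), 4 libraries had all 10 genes above, 4 had all 10 below, and 20 of 35 had at least 8 of the 10 on the same side.

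The widest such split lay among the 8-week P209L mice on the Hnrnph2 ASO. Replicate 2 of that group had 4.54 TPM of Folr1, 4.65 of Clic6, 4.75 of Kl, 2.67 of Aqp1 and 728.30 of Ttr. Replicate 3 had 12.70 TPM of Folr1, 10.68 of Clic6, 11.86 of Kl, 6.34 of Aqp1 and 1187.46 of Ttr. All 10 genes were below the group mean in replicate 2 (median deviation -0.52 on the log2 scale) and above it in replicate 3 (0.46). In the R206W group with the control ASO, Folr1 was at 4.92, 5.11 and 12.08 TPM and Ttr at 589.38, 465.56 and 892.45. Replicate 3, the highest there, had 8 of the 10 genes above the group mean. In all 4 groups of the R206W cohort replicate 3 had the highest Folr1, Aqp1, Sostdc1 and Enpp2 and the lowest Otx2. Animal names in the titles of that cohort have a stem, the part before their last number. Except in WT with the control ASO, replicate 3 carried another stem than the other replicates of its group. Whether the stem bears on these values was not tested.

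**Figure D2:**
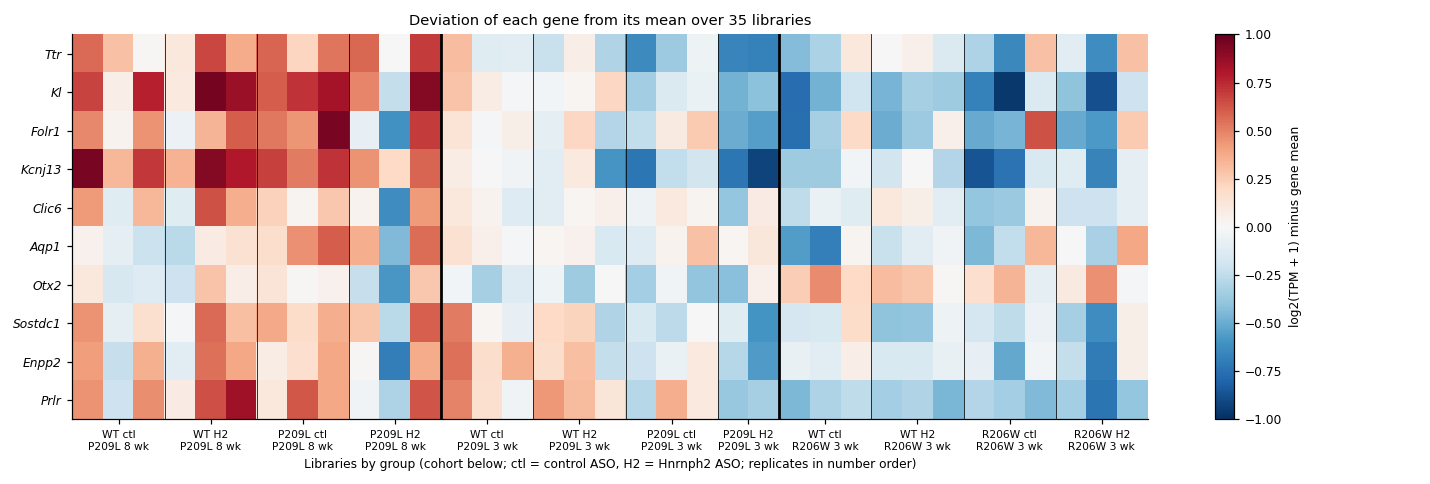
Difference of each gene's log2(TPM + 1) from its mean over 35 libraries (colour, cut at -1 and 1), with genes as rows and libraries as columns, thin lines between groups and thick lines between cohorts. In 7 of the 12 columns at 8 weeks all 10 genes lie above their mean, and the Otx2 row departs from the others in the R206W columns.

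To measure this shared movement, group means were taken off and the remaining deviations correlated between genes over the 35 libraries. Of the 45 pairs of members, 36 had an r over 0.5, with a median r of 0.691. The highest r was 0.873, between Sostdc1 and Enpp2, and Folr1 with Aqp1 reached 0.862. The lowest values all involved Otx2, down to -0.0189 with Kcnj13. These are descriptions, and the genes share their libraries and the scaling to 1 total.

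Against Ttr, the correlation of deviations held for 7 genes over all libraries, by a permutation test within groups over 36 relations. It was r = 0.792 and rho = 0.821 for Kcnj13 (adjusted p 0.0009 and 0.00036; r = 0.733 without the 2 libraries farthest in Ttr). It was r = 0.799 and rho = 0.785 for Aqp1 (adjusted p 0.00171 and 0.00135; r = 0.751 without those 2). Enpp2, Sostdc1, Folr1, Kl and Clic6 had r from 0.615 to 0.749 with an adjusted permutation p at or under 0.00499, and 0.612 to 0.737 without those 2 libraries. Their rho was 0.567 to 0.732, with an adjusted permutation p at or under 0.0126. Within the 8-week P209L, 3-week P209L and R206W cohorts, Kcnj13 had r of 0.722, 0.734 and 0.892 with Ttr, and Aqp1 0.739, 0.872 and 0.853. The adjusted permutation p for r was 0.0602, 0.0602 and 0.0378 for Kcnj13, and 0.0602, 0.0548 and 0.0548 for Aqp1. For rho it was 0.0984, 0.024 and 0.0197 for Kcnj13, and 0.0984, 0.064 and 0.067 for Aqp1. Aqp1 thus passed in no single cohort. Among these 7 genes the weakest cohort value was that of Clic6 in the 3-week P209L cohort, r = 0.267.

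Prlr and Otx2 did not pass this test over all libraries. Prlr had r = 0.406 and rho = 0.384 with Ttr (adjusted permutation p 0.08 and 0.105). Otx2 had r = 0.0221 and rho = -0.0162 (adjusted permutation p 0.928 and 0.942). Its cohorts differed in sign, with r = 0.847 at 8 weeks, -0.121 in the younger P209L cohort and -0.756 with R206W. Of these the value at 8 weeks passed (rho = 0.86, adjusted permutation p 0.0263 for r and 0.024 for rho). That with R206W did not (rho = -0.713, adjusted permutation p 0.0602 and 0.0984), nor did that of the younger P209L cohort. The difference between cohorts was not tested.

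A list of 33 other choroid plexus genes, such as tight-junction claudins and transporters, had 28 members that passed the filter. The mean deviation of those 28 went with that of 9 of the 10 genes, with r from 0.682 for Prlr (rho = 0.616, adjusted permutation p 0.0284 and 0.0239) to 0.89 for Kl (rho = 0.853, adjusted permutation p 0.0007 and 0.0009), over 70 relations of the 10 genes with 7 lists. Otx2 was the exception at r = 0.367 (rho = 0.207, adjusted permutation p 0.49 and 0.675), with r of 0.943, 0.188 and -0.637 in the 8-week, 3-week P209L and R206W cohorts. Otx2 instead went with the 12 cerebellar genes at r = 0.629 (rho = 0.639, adjusted permutation p 0.0208 and 0.00847; r = 0.589 without the 2 farthest libraries). Within the same cohorts these r were 0.604, 0.402 and 0.866. It also went with the 9 endothelial genes at r = 0.536 (rho = 0.531, adjusted permutation p 0.0284 and 0.0403; r = 0.502 without the 2 farthest), with 0.526, 0.567 and 0.536 within cohorts.

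Enpp2, which oligodendrocytes also make, went with 11 oligodendrocyte genes at r = 0.678 (rho = 0.679, adjusted permutation p 0.00747 and 0.00684; r = 0.624 without the 2 farthest libraries). Its r within the 8-week, 3-week P209L and R206W cohorts was 0.584, 0.837 and 0.805. Sostdc1 had r = 0.558 with that list (rho = 0.537, adjusted permutation p 0.0284 and 0.0506), so the rank value missed the threshold. Its r was 0.519 without the 2 farthest libraries, and 0.577, 0.776 and 0.461 within the cohorts. Ttr had r = 0.588 with the oligodendrocyte list and did not pass (rho = 0.514, adjusted permutation p 0.0555 and 0.0645). The remaining members lay between -0.0368 (Otx2) and 0.437 (Folr1), and none of them passed. For none of the 10 genes did the ependymal or leptomeningeal list give an adjusted p under the threshold.

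**Figure D3:**
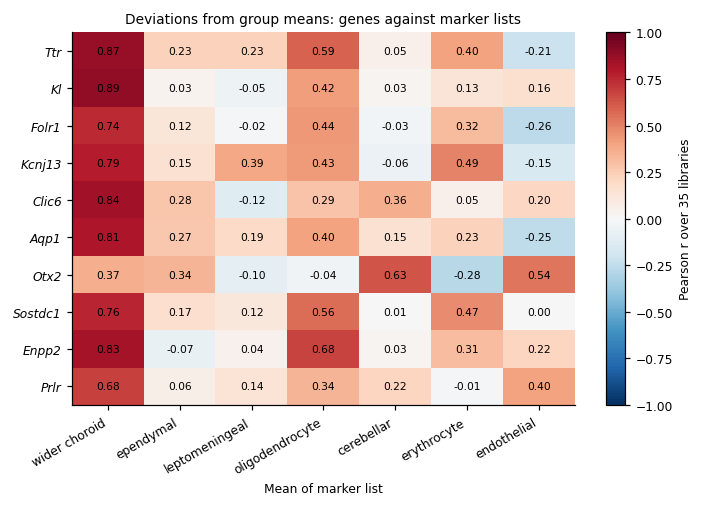
Pearson r over 35 libraries between the deviation of each gene (rows) from its group mean and the mean deviation of each of 7 marker lists (columns), as colour and number. The first column is between 0.68 and 0.89 for 9 genes, and Otx2 has its highest value with the cerebellar list, 0.63.

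Genes outside the 10 were ranked by the correlation of their log2(TPM + 1) with the mean of the members' z-scores over the 35 libraries, among 16546 genes. The 10 most alike were Mfrp (r = 0.95), Kcne2 (0.931), F5 (0.929), Cldn2 (0.907), Cab39l (0.906), Prr32 (0.892), Emb (0.89), Slc4a5 (0.869), Trpv4 (0.864) and Scd1 (0.828). Kcne2 is a potassium channel subunit, Cldn2 a claudin that forms a cation pore, Slc4a5 a bicarbonate transporter and Trpv4 a calcium channel, and these 4 with F5 and Cab39l are on the list of other choroid plexus genes. Taken off their group means, the same genes kept r from 0.571 for Scd1 to 0.936 for Mfrp. Of the members themselves, Kl followed the mean of all 10 most closely (r = 0.929) and Otx2 least (0.0838).

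The first comparison asked whether the mutations changed these genes in mice given the control ASO. None of the 10 genes passed the test in any cohort. With limma, 0 of 10 were called at 8 weeks in P209L against WT, where 0.170% of all genes tested were called. In the younger cohorts 0 of 10 were called for P209L, against 0.133% of all genes, and 0 of 10 for R206W, against 0.133%. Of the 30 values, 3 had an unadjusted p under 0.05, all in P209L at 3 weeks, where 8.86% of all genes did. The standard errors (SE) were between 0.112 and 0.336 on the log2(TPM + 1) scale, which understates changes of low genes.

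At 8 weeks Aqp1 was at 4.11, 3.67 and 3.29 TPM in WT and at 4.62, 5.81 and 6.57 in P209L. The groups did not overlap, and the log2 difference of 0.50 (SE 0.228) did not pass (limma adjusted p 0.784). In the R206W cohort Aqp1 was at 2.38, 2.10 and 4.07 TPM in WT and at 2.64, 3.18 and 5.26 in mutants, which overlap. In the P209L cohort at 3 weeks its means were 4.19 and 4.25 TPM. Aqp1 thus had higher means in mutants in the 8-week and the R206W cohort (0.28, SE 0.237, limma adjusted p 0.753 in the latter), with groups apart only at 8 weeks, and near-equal means in the younger P209L cohort.

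The P209L mice at 3 weeks had lower values of Kl, Kcnj13 and Enpp2 than their WT littermates, with no overlap between groups and no call. How many of all genes lacked overlap between these groups was not counted. Kl was at 7.30, 6.15 and 5.69 TPM in WT and at 4.34, 5.14 and 5.48 in P209L (log2 difference -0.30, SE 0.112, limma adjusted p 0.494). Kcnj13 was at 4.70, 4.43 and 4.29 TPM against 2.29, 3.56 and 3.77 (-0.40, SE 0.187, adjusted p 0.576). Enpp2 was at 321.66, 248.64 and 281.00 TPM against 190.09, 209.78 and 234.47 (-0.42, SE 0.148, adjusted p 0.465). Ttr was at 903.42, 672.30 and 673.66 TPM against 470.31, 566.75 and 703.16, with an overlap of 1 library (-0.37, SE 0.158, adjusted p 0.532). Clic6 and Aqp1, by contrast, differed by 0.02 and 0.01 there. In the same comparison all 11 oligodendrocyte genes were lower in P209L, 8 of them at an unadjusted p under 0.05 and 0 called (median -0.23), with a summed 13520 to 14112 TPM against 14906 to 16917 in WT. All 5 erythrocyte genes were lower too, with 0 called (median -0.76), at 1184.3 to 1840 TPM against 2191.2 to 3226.1. The part of these in the values of Enpp2 and the others was not tested.

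Averaged over the 3 cohorts, 0 of 10 genes were called for the mutations, against 4.28% of all genes. The differences ran from -0.25 for Kcnj13 (SE 0.117, limma adjusted p 0.239) to 0.26 for Aqp1 (SE 0.126, adjusted p 0.264). At an unadjusted p under 0.05 there were 2 of 10, against 18.5% of all genes. The median of the 10 was -0.06 and that of all genes 0.01. With the mean of the list of other choroid plexus genes as a covariate, Kcnj13 was at -0.30 with an adjusted p of 0.0218 and was the only member called. What that covariate removes was not tested.

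Among the 28 other choroid plexus genes tested, 1 was called higher and 1 lower in the averaged mutants, beside 4.28% of all genes called in either direction. The count is thus near the background. Htr2c, the serotonin receptor that is abundant in this epithelium and also made by neurons, rose by 0.40 (limma adjusted p 0.0231). Igfbp2, a secreted binding protein for insulin-like growth factors, was at -0.45 (adjusted p 0.0126). All 15 leptomeningeal genes were also below 0 there, with a median of -0.23 and 2 called. Whether leptomeningeal RNA bears on Igfbp2 was not tested. Of 20 tested ligands, receptors and transporters that work with the members, 1 passed, which is also near the 4.28% of all genes. It was the lysophosphatidic acid receptor gene Lpar1 at -0.22 (adjusted p 0.0118). Lpar1 is abundant in oligodendrocytes, and all 11 oligodendrocyte genes were also below 0 there, 4 of them called. Whether the amount of oligodendrocyte RNA bears on Lpar1 was not tested.

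The second comparison asked whether the Hnrnph2 ASO changed these genes relative to the control ASO. No stem of an animal name occurred with both ASOs in any cohort, so ASO and stem cannot be told apart in the ASO comparisons. In WT mice 0 of 10 were called at 8 weeks, against 0.0182% of all genes, 0 of 10 at 3 weeks in the P209L cohort, against 0.0121%, and 0 of 10 in the R206W cohort, against 0.0121%. With limma, 0 of these 30 values had an unadjusted p under 0.05. Averaged over the cohorts 0 of 10 were called, against 0.187% of all genes, and the 10 differences lay between -0.09 (Enpp2) and 0.11 (Prlr), with SE of 0.101 to 0.174 and no adjusted p under 0.813. In WT mice, then, no difference between the injected sequences passed for any of the 10 genes.

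In mutants 0 of 10 genes were called at 8 weeks, against 0.0908% of all genes, 0 of 10 in P209L at 3 weeks, against 0.0969%, and 0 of 10 in R206W, against 0.0970%. At an unadjusted p under 0.05 there were 2 of the 30 values, both in P209L at 3 weeks, where the share of all genes was 6.81%. The values of Folr1 were the lowest. At 8 weeks Folr1 was at 11.11, 10.42 and 15.25 TPM with the control ASO and at 6.95, 4.54 and 12.70 with the Hnrnph2 ASO, which overlap (-0.63, SE 0.293, limma adjusted p 0.811). In P209L at 3 weeks it was at 6.11, 7.96 and 9.11 TPM against 4.98 and 4.73 (n = 2), with no overlap (-0.56, SE 0.164, adjusted p 0.497). In R206W it was at 4.92, 5.11 and 12.08 TPM against 4.93, 4.65 and 9.10, which overlap.

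Folr1 was not alone in the younger P209L mice. Ttr, Kl, Kcnj13, Enpp2 and Prlr too were lower in both libraries with the Hnrnph2 ASO than in the 3 with the control ASO. Ttr was at 460.58 and 456.67 TPM against 470.31, 566.75 and 703.16. Kcnj13 was at 2.28 and 1.85 TPM against 2.29, 3.56 and 3.77 (-0.44, SE 0.209, limma adjusted p 0.744), and Prlr at 1.28 and 1.35 against 1.43, 2.81 and 2.16 (-0.41, SE 0.207, adjusted p 0.773). The gaps between the groups were as small as 2.28 against 2.29 TPM, and the 2 treated libraries hold the 2 lowest sums of the 10 genes in that cohort (671.72 and 639.14 TPM). The share of all genes without overlap between these 2 groups was not counted. With 2 against 3 libraries, and with most members moving together, the lack of overlap is a description only.

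Averaged over the cohorts, 0 of 10 genes were called for the ASO in mutants, against 2.50% of all genes. All 10 averaged differences were below 0, with a median of -0.14 against 0.00 for all genes. At an unadjusted p under 0.05 there were 2 of 10, against 13.7% of all genes. The cohorts did not all share this direction. In P209L, 10 of 10 were below 0 at 8 weeks and 8 of 10 at 3 weeks (medians -0.25 and -0.29). In R206W 6 of 10 were above 0 and 4 below, with a median of 0.06. The lowest was Folr1 at -0.45 (SE 0.181, limma adjusted p 0.228), followed by Prlr at -0.27 (SE 0.131, adjusted p 0.352) and Enpp2 at -0.26 (SE 0.133, adjusted p 0.403). Most of the genes moved together between libraries (36 of 45 pairs with an r over 0.5), so 10 values below 0 are not 10 separate observations. The 15 leptomeningeal genes went the other way, with all 15 above 0, a median of 0.20 and 1 called (Aldh1a2, 0.29, adjusted p 0.0379). Their summed level with the control and the Hnrnph2 ASO was 252.39 to 266.95 and 293.18 to 301.62 TPM in P209L at 8 weeks, 241.98 to 298.92 and 270.58 to 309.06 in the younger P209L mice, and 259.15 to 313.41 and 329.5 to 528.93 in R206W. The 528.93 TPM in R206W was replicate 1 alone, with the other replicates at 329.5 and 348.57. All 15 genes were also lower in the R206W control ASO libraries than in WT (median -0.36, 0 called), and this comparison shares those libraries. The part of the leptomeningeal genes in the values of the members was not tested. Of the 28 other choroid plexus genes, 19 were below 0 and 0 were called, with 4 at an unadjusted p under 0.05.

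**Figure D4:**
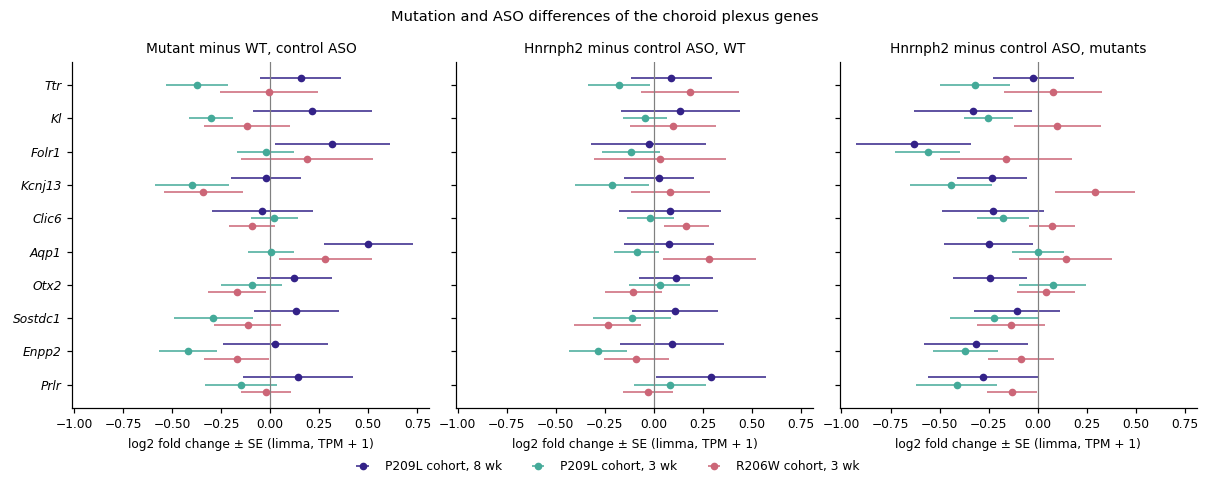
Log2 fold change on the log2(TPM + 1) scale with its SE (limma) for each gene (y axis) and cohort (colour), for mutant minus WT under the control ASO, and for Hnrnph2 ASO minus control ASO in WT and in mutants. The panel of mutant minus WT and that of the ASO in mutants share the mutant control libraries. No value passed the adjusted threshold, and those of the ASO in mutants reach from -0.63 for Folr1 at 8 weeks to 0.29 for Kcnj13 in R206W.

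The effect of the ASO in mutants was also tested against that in WT. With limma 0 of 10 genes were called at 8 weeks, against 0.00605% of all genes, 0 of 10 in P209L at 3 weeks, against 0.0363%, and 0 of 10 in R206W, against 0.0182%. None of these 30 values had an unadjusted p under 0.05. Averaged over the cohorts 0 of 10 were called, against 0.302% of all genes. Prlr at -0.39 (SE 0.181, limma adjusted p 0.667) was the 1 member at an unadjusted p under 0.05, against 7.26% of all genes. Folr1 was at -0.41 (SE 0.251, adjusted p 0.798). No difference in ASO response between mutants and WT was therefore shown for these genes.

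The third comparison set the 8-week against the 3-week libraries of the P209L cohorts, and here some of the 10 genes were called. Averaged over the 4 pairs of groups, an average added after the single pairs had been seen, 5 of 10 genes were called, all higher at 8 weeks. Kcnj13, Ttr, Kl, Sostdc1 and Folr1 rose, and Prlr, Clic6, Otx2, Enpp2 and Aqp1 did not pass. Of all genes 42.1% were called in either direction and 15.5% were called higher, so the count of calls is near the background and the count of rises above it. Most of the members moved together between libraries (36 of 45 pairs with an r over 0.5), so 5 rises are not 5 separate observations. The calls over all genes were 2571 higher and 4396 lower, and 3655 higher and 3455 lower after rescaling by the median of ratios. The median of the 10 was 0.29 against -0.03 for all genes, of which 41.9% were above 0. The 2 ages are separate sets of mice, so age and anything else that differed between the collections cannot be told apart.

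Kcnj13 was the clearest of them. In WT with the control ASO it was at 9.47, 5.80 and 7.83 TPM at 8 weeks and at 4.70, 4.43 and 4.29 at 3 weeks. In P209L with the control ASO it was at 7.69, 6.78 and 7.92 TPM against 2.29, 3.56 and 3.77. With the Hnrnph2 ASO it was at 5.89, 9.22 and 8.45 TPM against 4.04, 4.81 and 2.59 in WT, and at 6.38, 5.22 and 7.12 against 2.28 and 1.85 in P209L. All 12 libraries at 8 weeks were above all 11 at 3 weeks.

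The average log2 difference of Kcnj13 was 0.95 (SE 0.104, limma adjusted p 4.6e-08). Pair by pair it passed in all 4, at 0.65 (adjusted p 0.0363) in WT with the control ASO, 1.03 (0.00132) in P209L with the control ASO, 0.89 (0.00406) in WT with the Hnrnph2 ASO and 1.24 (0.000417) in P209L with the Hnrnph2 ASO. The value of WT with the control ASO rests on single libraries: without replicate 1 at 8 weeks it was 0.50 with an adjusted p of 0.171. Without replicate 3 at 8 weeks, or without replicate 1, 2 or 3 at 3 weeks, its adjusted p was 0.0596, 0.0822, 0.072 and 0.111.

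Ttr was at 1082.89, 894.87 and 735.10 TPM at 8 weeks and at 903.42, 672.30 and 673.66 at 3 weeks in WT with the control ASO, which overlap. In P209L with the control ASO it was at 1095.07, 848.94 and 1059.32 TPM against 470.31, 566.75 and 703.16. With the Hnrnph2 ASO it was at 783.44, 1159.64 and 943.45 TPM against 626.22, 764.26 and 591.04 in WT, and at 1088.43, 728.30 and 1187.46 against 460.58 and 456.67 in P209L. These last 3 pairs of groups did not overlap.

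The average difference of Ttr was 0.67 (SE 0.119, limma adjusted p 5.49e-05). It was called in P209L with the control ASO (0.80, adjusted p 0.0259) and in P209L with the Hnrnph2 ASO (1.09, adjusted p 0.00474). In WT it was 0.27 (adjusted p 0.513) with the control ASO and 0.53 (adjusted p 0.14) with the Hnrnph2 ASO. In P209L with the control ASO the call was lost without replicate 1 or 3 at 8 weeks or replicate 1 or 2 at 3 weeks, with values of 0.73 (0.0947), 0.75 (0.09), 0.66 (0.153) and 0.79 (0.0748).

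Kl was at 9.85, 6.10 and 10.62 TPM at 8 weeks and at 7.30, 6.15 and 5.69 at 3 weeks in WT with the control ASO. In P209L with the control ASO it was at 9.35, 10.18 and 11.07 TPM against 4.34, 5.14 and 5.48. With the Hnrnph2 ASO it was at 6.26, 12.20 and 11.36 TPM against 5.67, 5.89 and 6.85 in WT, and at 8.52, 4.75 and 11.86 against 3.90 and 4.12 in P209L. The P209L groups were apart and the WT groups overlapped.

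The average difference of Kl was 0.67 (SE 0.127, limma adjusted p 0.000111), with calls in P209L with the control ASO (0.91, adjusted p 0.0173) and with the Hnrnph2 ASO (0.83, adjusted p 0.0399). With the control ASO it lost the call without replicate 2 or 3 at 8 weeks or replicate 1 at 3 weeks (adjusted p 0.0519, 0.0684 and 0.0876). With the Hnrnph2 ASO it lost it without replicate 1 or 3 at 8 weeks or without either library at 3 weeks (adjusted p 0.104, 0.173, 0.147 and 0.161). In WT with the control ASO Kl did not pass (0.39, adjusted p 0.337). In WT with the Hnrnph2 ASO it did not pass either (0.57, adjusted p 0.136), and was called without replicate 1 at 8 weeks (0.84, adjusted p 0.0388).

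Among the rest, Sostdc1 had a median of 4.985 TPM over the 12 libraries at 8 weeks and 3.62 over the 11 at 3 weeks, with ranges of 3.07 to 6.41 and 2.23 to 6.01. Its average difference was 0.32 (SE 0.109, limma adjusted p 0.0197), and in P209L with the Hnrnph2 ASO it was called only without replicate 2 at 8 weeks (0.80, adjusted p 0.0285). Folr1 had a median of 10.44 TPM against 7.37, with 8 of 12 libraries above all 11 at 3 weeks (0.44, SE 0.155, adjusted p 0.0251). Both calls rest on single libraries. Without P209L Hnrnph2 ASO replicate 2 at 3 weeks, Sostdc1 was at 0.26 (adjusted p 0.0815) and Folr1 at 0.43 (adjusted p 0.0507), and without P209L Hnrnph2 ASO replicate 3 at 8 weeks Folr1 was at 0.35 (adjusted p 0.0541).

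The genes that did not pass had smaller differences. Prlr was at 0.26 (SE 0.112, limma adjusted p 0.0666) and Clic6 at 0.19 (SE 0.0985, adjusted p 0.121). Otx2 was at 0.15 (SE 0.0904, adjusted p 0.188), Enpp2 at 0.15 (SE 0.114, adjusted p 0.292) and Aqp1 at 0.08 (SE 0.113, adjusted p 0.618). Without P209L Hnrnph2 ASO replicate 2 at 8 weeks both passed, Prlr at 0.31 (adjusted p 0.0271) and Clic6 at 0.26 (0.0151), and without WT Hnrnph2 ASO replicate 1 at 8 weeks likewise (0.31 and 0.023; 0.24 and 0.0415). Prlr also passed without WT control ASO replicate 2 (adjusted p 0.0226) or P209L control ASO replicate 1 (0.0448) at 8 weeks, and without WT control ASO replicate 1 (0.0416) or P209L control ASO replicate 2 (0.0394) at 3 weeks. Both passed after rescaling by the median of ratios (0.29 and 0.0321 for Prlr, 0.23 and 0.0449 for Clic6). Aqp1, the water channel, had medians of 4.395 TPM at 8 weeks and 4.1 at 3 weeks.

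**Figure D5:**
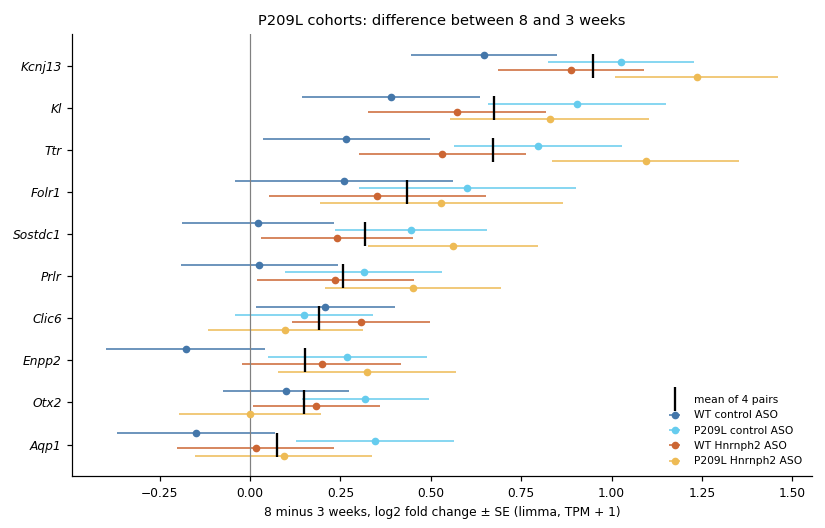
Log2 fold change on the log2(TPM + 1) scale with its SE (limma), 8 minus 3 weeks, for each gene (y axis, ordered by the mean) and each pair of groups (colour), with the mean of 4 pairs as a vertical tick. Kcnj13 lies at 0.65 to 1.24 in the 4 pairs, and Aqp1 has the lowest mean, 0.08.

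Pair by pair, the calls were all rises. With the control ASO 1 of 10 genes was called in WT, against 11.4% of all genes (2.76% called higher), and 3 of 10 in P209L, against 10.2% (4.02% higher). With the Hnrnph2 ASO 1 of 10 was called in WT, against 11.8% (3.03% higher), and 3 of 10 in P209L, against 15.8% (7.40% higher). Rescaling by the median of ratios moved the split over all genes in WT, from 457 higher and 1434 lower to 762 and 971 with the control ASO, and from 502 and 1453 to 840 and 1043 with the Hnrnph2 ASO. The difference of the age effects, P209L minus WT, was tested itself, also as an added contrast. With limma 0 of 10 genes were called, against 0.00% of all genes (0 called, with 1447 at an unadjusted p under 0.05). Ttr, the 1 member at an unadjusted p under 0.05, was at 0.55 (SE 0.238, adjusted p 0.499). A larger age difference in P209L than in WT was thus not shown.

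Of the 28 other choroid plexus genes tested, 15 were called higher and 5 called lower at 8 weeks, beside the 15.5% of all genes called higher and 42.1% called in either direction. By sign alone 19 were higher and 9 lower, with a median difference of 0.29. Among those with the smallest p were Slc31a1, a copper importer, at -0.53 (limma adjusted p 3.32e-09), Calml4 at 0.74 (4.17e-06) and Msx1, a homeodomain factor, at 0.38 (6.25e-06). Kcne2, the channel subunit that followed the members most closely of that list, rose by 0.76 (2.7e-05).

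Of the 20 tested partners of the members, 4 were called higher and 8 called lower, beside the same shares of all genes, while by sign alone 12 were higher and 8 lower. Fgfr2, one of the receptors with which the Klotho family acts, rose by 0.43 (limma adjusted p 2.58e-07). Lpar1 and Lpar6, receptors for the product of autotaxin, were at -0.38 (3.79e-07) and -0.25 (3.89e-05).

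Other cell types also moved between the ages. Of 11 oligodendrocyte genes 9 were called lower at 8 weeks, with a summed level of 6101.6 to 8711.7 TPM against 12681 to 16917 in the P209L cohort at 3 weeks. Of 13 ependymal genes, markers of the ciliated lining of the ventricles, 8 were called higher and 2 lower, at 51.70 to 77.09 against 49.98 to 67.32 TPM. Of 15 leptomeningeal genes 8 were called higher and 4 lower (231.05 to 349.4 against 241.98 to 357.43 TPM), and all 5 erythrocyte genes were called lower (730.75 to 1821 against 1019.7 to 5846.5 TPM). The part of these in the age differences of the choroid plexus genes was not tested. With the mean of the list of other choroid plexus genes as a covariate, Kcnj13 stayed called in the average at 0.67, Kl at 0.29 and Ttr at 0.31. Within pairs that covariate ended the calls of Kl in P209L with the control ASO (0.35, adjusted p 0.111) and with the Hnrnph2 ASO (0.17, adjusted p 0.49), and that of Ttr in P209L with the control ASO (0.28, adjusted p 0.2). In the fit of the average Folr1 (0.04, adjusted p 0.841) and Sostdc1 (0.04, adjusted p 0.765) were not called.

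The last comparison set the WT mice with the control ASO of the R206W cohort against those of the P209L cohort, both at 3 weeks. The cohort of these WT libraries was read from the name series in their titles. With limma 0 of 10 genes were called, against 5.43% of all genes. At an unadjusted p under 0.05 there were 4 of 10, against 25.2% of all genes. Otx2 was at 9.33, 11.06 and 8.99 TPM in the R206W cohort and at 7.53, 5.92 and 6.97 in the P209L cohort, with no overlap (0.47, SE 0.175, adjusted p 0.103). Kl was at 3.00, 3.90 and 4.91 TPM against 7.30, 6.15 and 5.69 (-0.59, SE 0.246, adjusted p 0.134), and Prlr at 1.17, 1.39 and 1.48 against 3.18, 2.31 and 1.88 (-0.54, SE 0.217, adjusted p 0.122). Enpp2 was also lower without overlap, and Aqp1 was lower with overlap (-0.46, SE 0.218, adjusted p 0.183). How many of all genes lacked overlap between these groups was not counted.

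Otx2 was thus the 1 gene of the 10 with a higher value in the R206W cohort, and the cerebellar genes went the same way. All 12 of those were above 0 and 8 were called, among them Gabra6 (0.85, limma adjusted p 0.0244), Car8 (0.76, 0.0244), Neurod1 (0.71, 0.0244) and Gdf10 (0.71, 0.0273), with a median difference of 0.71. Their summed level was 949.71 to 1646.4 TPM in the R206W cohort and 655.62 to 940.81 TPM in its 3-week counterpart. Over all groups, Otx2 was at 7.14 to 11.06 TPM in the 12 libraries of the R206W cohort and at 5.52 to 8.04 in the 11 of the P209L cohort at 3 weeks. The part of the cerebellar genes in the Otx2 values was not tested.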

How the data were processed

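RNA was measured in 35 libraries (12 groups, 3 cohorts). The authors deposited TPM values with 2 decimals, 1 per gene and library. Per the submitters' processing notes, the build was mm10 and the tools were RSEM, STAR 2.7.1a, Trim Galore and GATK 4.0.4.0. The annotation and strand setting are not given in the sources used here. TPM keeps no depth, so no counting error is given and no count tool was used.

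Rows whose mean reached 1 TPM were tested on log2(TPM + 1), a transformation of the deposited values, with limma 3.58.1 in R 4.3.3 (trend, two-sided). The Benjamini-Hochberg adjustment ran over all genes tested, and genes were called under 0.05. Comparisons within a cohort used that cohort's 4 groups, and all others used 35 libraries. The fits were tested on simulated data. Correlations used deviations from group means, 100000 permutations within groups, two-sided, NumPy 2.4.6 and SciPy 1.17.1 in Python 3.11.15.

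The members and the lists were chosen with earlier results of these data known. The 10 members were followed in every contrast. From other lists, up to 4 called genes with the smallest p were taken; Kcne2 was added after its values were seen. Some genes that this rule takes are not reported here. WT libraries at 3 weeks were placed in cohorts by the name series in their titles. In no cohort did a stem of an animal name occur with both ASOs, so ASO and stem cannot be told apart. Over all genes, same-numbered replicates did not all correlate above 0.1 in any comparison, so they were not paired. Alternatives were another pseudocount (0.1), no filter, rescaling by the median of ratios, only the groups compared, a replicate block, the wider choroid plexus list as a covariate, merged WT groups and leaving out each library. No sequence is shown, since none was at hand.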

Additional observations from a re-analysis of the deposited data

How the results depend on the processing

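TPM carries no depth, so counting error is unknown for genes at a few TPM such as Prlr, and 2 or 3 libraries per group limit each comparison. For the mutation, ASO and interaction comparisons and the cohort difference, 0 of 10 genes were called under the alternatives run, with 2 exceptions. The average mutation effect had 1 with the wider choroid plexus list as a covariate (Kcnj13, -0.30, limma adjusted p 0.0218). The average ASO effect in mutants had 1 with the replicate number as a block (Folr1, -0.45, adjusted p 0.0284). The replicate block changed no other count, and same-numbered libraries of 3 pairs did not all correlate above 0.1 in any comparison, although within the R206W cohort every such correlation was above 0.

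The age effect moved more. In WT with the control ASO the count of 1 went to 0 with a pseudocount of 0.1 TPM, with no filter and with only the groups compared, and ran from 0 to 1 when each library was left out. With no filter Ttr in P209L with the control ASO (adjusted p 0.064), Kl in P209L with the Hnrnph2 ASO (0.0823) and Folr1 in the average (0.0562) also lost their calls. In P209L with the control ASO the count of 3 was 1 with the covariate and ran from 1 to 3 over left-out libraries. With the Hnrnph2 ASO and only the groups compared, it was 0 in WT and 1 in P209L, and over left-out libraries it ran from 1 to 2 in WT and from 2 to 4 in P209L. The average over 4 pairs ran from 3 to 7 over left-out libraries. With the covariate its sign turned for Clic6 (-0.089), Aqp1 (-0.23, adjusted p 0.0334), Enpp2 (-0.17) and Prlr (-0.000333), none of them called without it. Kcnj13, Kl and Ttr were called in all 29 alternatives of that average, Sostdc1 in 27 and Folr1 in 25. Over all comparisons, 276 of 3900 alternative values changed sign. None of these differences was called as reported, and 1, that of Aqp1 just given, was called under the alternative. Where no construction shows it, the cause was not tested.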

Other observations

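In the R206W cohort replicate 3 had the highest Folr1 and the lowest Otx2 of its group in all 4 groups. Folr1 was at 8.63 TPM in WT with the control ASO against 3.98 and 5.68, and at 12.08 against 4.92 and 5.11 in R206W. It was at 7.72 against 4.97 and 5.53 in WT and at 9.10 against 4.93 and 4.65 in R206W with the Hnrnph2 ASO. Otx2 was at 8.99 TPM against 9.33 and 11.06 in WT and at 7.14 against 8.77 and 10.01 in R206W with the control ASO. It was at 7.76 against 9.81 and 9.55 in WT and at 7.61 against 8.29 and 10.95 in R206W with the Hnrnph2 ASO. Replicate 3 also carried another stem of the animal name than the other replicates of its group, except in WT with the control ASO. The pattern was noticed in the values, and neither it nor the part of the stem in it was tested.

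A list of pituitary genes (hormone genes and Pou1f1), from a gland outside the brain, was at a summed 2.06 to 8.99 TPM in the 3-week libraries. Pomc was at 1.84 TPM or more in each of the 35 libraries, with a median of 2.95. The medians of Gh and Prl were 0.03 and 0 TPM, so the low sums do not show pituitary RNA in each library. The sum reached 81.67 TPM in WT control ASO replicate 2 at 8 weeks, where Gh was at 56.30 TPM. That library had the lowest Kl (6.10 TPM), Clic6 (7.01) and Enpp2 (187.27) of its group. The next highest sum was 34.84 TPM, in WT Hnrnph2 ASO replicate 2 at 8 weeks. This one had the highest Kl (12.20 TPM), Clic6 (12.51) and Enpp2 (322.76) of the 35 libraries, so the 2 libraries went opposite ways.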
